A study of Mus musculus with 13 samples.

Results

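Markers of alpha and fast-fatigable motoneurons, the neurons lost first in amyotrophic lateral sclerosis, were followed in motoneurons of SOD1-G93A mice. The set holds the 7 genes Mmp9, Chodl, Calca, Calcb, Spp1, Vipr2 and Rbfox3, which were chosen by name and found by their Ensembl identifiers among 48709 gene rows. All 7 passed the filter on low counts and were among the 17403 genes tested. Every mouse carried the SOD1-G93A transgene, human SOD1 with an amyotrophic lateral sclerosis mutation, and every sample was taken at 65 days of age. The AAV-miR SOD1 group (n = 4) had received, into the cerebral ventricles at postnatal day 2, an adeno-associated virus (AAV) that makes astrocytes express an artificial microRNA directed at human SOD1. The AAV-miR ctrl group (n = 5) had received the control AAV in the same way, and the 4 non-injected mice were littermates that received no virus. Each of the 13 libraries came from 1 mouse, as RNA of a pool of 500 motoneurons cut by laser from cresyl violet-stained lumbar cord that had been frozen together with its vertebrae. No mouse without the transgene was included, so the levels describe mutant motoneurons only, and they were measured as read counts per gene after amplification of full-length cDNA.

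An alpha motoneuron drives the force-producing fibres of a muscle, whereas a gamma motoneuron sets the tension of the muscle spindle. Among alpha motoneurons, those of fast-fatigable units lose their contact with muscle before those of slow units in mutant SOD1 mice. Mmp9, which encodes a secreted matrix metalloproteinase, and Chodl, which encodes the membrane lectin chondrolectin, are known from fast motoneurons. Calca and Calcb encode the alpha and beta forms of calcitonin gene-related peptide (CGRP), a peptide that motoneurons carry to the neuromuscular junction. Vipr2 encodes a receptor for vasoactive intestinal peptide and PACAP. Spp1 encodes osteopontin, a secreted phosphoprotein found in alpha motoneurons and also made in large amounts by bone cells. Rbfox3 encodes NeuN, a neuronal splicing factor that is abundant in alpha and scarce in gamma motoneurons.

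The 7 genes lie apart in the mouse genome except for the CGRP pair. In GRCm38, Mmp9 (ENSMUSG00000017737) is at chr2:164940780-164955850 on the plus strand, Chodl (ENSMUSG00000022860) at chr16:78930948-78951733 on the plus strand, and Spp1 (ENSMUSG00000029304) at chr5:104435118-104441050 on the plus strand. Vipr2 (ENSMUSG00000011171) is at chr12:116077726-116146261 on the plus strand and Rbfox3 (ENSMUSG00000025576) at chr11:118489762-118911597 on the minus strand. Calca (ENSMUSG00000030669, chr7:114631478-114636357, minus strand) and Calcb (ENSMUSG00000030666, chr7:114718643-114723365, plus strand) are neighbours with opposite orientation. An exon of Spp1 overlaps Gm42793, an annotated transcript of unknown coding status on the same strand, and reads in the overlap cannot be assigned to either gene alone.

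Because the CGRP genes are near copies over part of their coding sequence, the stretch around their longest shared run is shown first, with that run in capitals. The Calca sequence spans exons 3 to 4 of 5 of transcript ENSMUST00000032906.10 (chr7:114632511-114634499, minus strand, spliced), and the Calcb sequence spans exons 4 to 5 of 6 of ENSMUST00000182816.1 (chr7:114721681-114722063, plus strand, spliced), both from GENCODE M21 on GRCm38.
Calca: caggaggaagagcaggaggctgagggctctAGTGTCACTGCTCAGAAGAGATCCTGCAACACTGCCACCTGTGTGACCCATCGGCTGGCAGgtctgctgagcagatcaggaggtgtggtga
Calcb: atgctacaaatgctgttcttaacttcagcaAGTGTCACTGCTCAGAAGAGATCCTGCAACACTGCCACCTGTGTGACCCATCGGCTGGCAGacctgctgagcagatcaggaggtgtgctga
The capitals mark the longest run of identical coding bases, 61 in all, and some of the lower-case bases after it are identical too. The run is held by 2 of 7 annotated Calca transcripts and 1 of 3 Calcb transcripts. Of all 50-base words in the transcripts, 12 of 1678 in Calca (0.715%) and 12 of 1260 in Calcb (0.952%) also occur in the other gene. A read inside this run cannot be assigned to either gene, while the other words tell the genes apart. Calca also gives the hormone calcitonin through another 3′ exon, and a count per gene does not separate calcitonin from CGRP transcripts.

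Promoters are shown for Calca, Chodl and Vipr2, whose levels varied together across libraries. Each is the 250 bases before the RefSeq transcript start on GRCm38.p6, 5′ to 3′ on the gene's strand: chr7:114636358-114636607 for Calca (minus), chr16:78930698-78930947 for Chodl (plus) and chr12:116077476-116077725 for Vipr2 (plus).
Calca promoter: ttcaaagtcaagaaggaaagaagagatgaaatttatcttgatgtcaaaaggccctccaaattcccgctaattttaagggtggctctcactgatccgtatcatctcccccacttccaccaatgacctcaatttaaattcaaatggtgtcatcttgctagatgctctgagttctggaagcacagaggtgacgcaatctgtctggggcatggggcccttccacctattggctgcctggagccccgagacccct
Chodl promoter: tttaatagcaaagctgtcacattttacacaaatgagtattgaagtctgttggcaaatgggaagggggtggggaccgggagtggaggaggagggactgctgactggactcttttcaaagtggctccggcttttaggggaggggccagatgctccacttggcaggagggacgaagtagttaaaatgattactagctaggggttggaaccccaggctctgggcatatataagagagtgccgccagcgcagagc
Vipr2 promoter: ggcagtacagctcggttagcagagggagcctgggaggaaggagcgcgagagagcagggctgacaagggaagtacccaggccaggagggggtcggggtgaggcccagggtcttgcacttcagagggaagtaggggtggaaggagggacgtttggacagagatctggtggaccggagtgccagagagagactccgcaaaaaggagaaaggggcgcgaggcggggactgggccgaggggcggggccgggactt
Motifs were searched on both strands: TATAAA, the cyclic AMP response element TGACGTCA, the AP-1 site TGANTCA and the E-box CACGTG. None of these 3 windows held any of them in the form given. Variant forms, such as the tatataa near the end of the Chodl window, were not searched. Of 32851 promoter windows of the same length, 12.4% held TATAAA, 1.55% TGACGTCA, 6.75% TGANTCA and 6.02% CACGTG. The window before an Spp1 start (chr5:104434861-104435110, plus strand) held TATAAA at 211 bases before the start.

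Libraries held 13.9 to 37.4 megacounts assigned to genes, and the 4 libraries numbered 5 or 6 in their titles were the deepest and all belonged to control groups. The column header of 2 tables went against the title: those titled as replicate 3 of AAV-miR ctrl and as replicate 3 of the non-injected mice. Titles were followed, and the fold changes of the 7 markers and their correlations with cell type lists and with each other are also given without both libraries, an alternative chosen after the data had been seen. The labelled cell type was checked with 8 cholinergic and motoneuron genes, all of which were detected in every library. Their summed level was 587 to 1448 CPM (counts scaled to library size) in AAV-miR SOD1, 984 to 2854 in AAV-miR ctrl and 1010 to 2827 in non-injected libraries. RNA of cells outside the cord was also present: the 8 neutrophil genes summed to 10498 to 82203 CPM over the groups and the 6 erythroid genes to 3577 to 50895.

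Markers differed widely in level. On the length-corrected scale (RPKM, TMM-scaled CPM per kilobase of exon), Spp1 stood at 3117 ± 1217 RPKM (SD, n = 13), the rank of 16 among the genes tested. Calcb followed at 454 ± 233 RPKM, Calca at 369 ± 215 and Mmp9 at 223 ± 114 (SD, n = 13 each). Chodl was at 36.7 ± 12.8 RPKM, Rbfox3 at 11.0 ± 4.18 and Vipr2 at 5.36 ± 2.26 (SD, n = 13 each). In this order, the ranges over libraries of Calcb and Calca, of Calca and Mmp9, and of Rbfox3 and Vipr2 overlapped, and those of the other neighbours did not. All 7 were counted well above the floor that 3 counts set: the lowest count of any marker in any library was 250, for Vipr2.

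**Figure D1:**
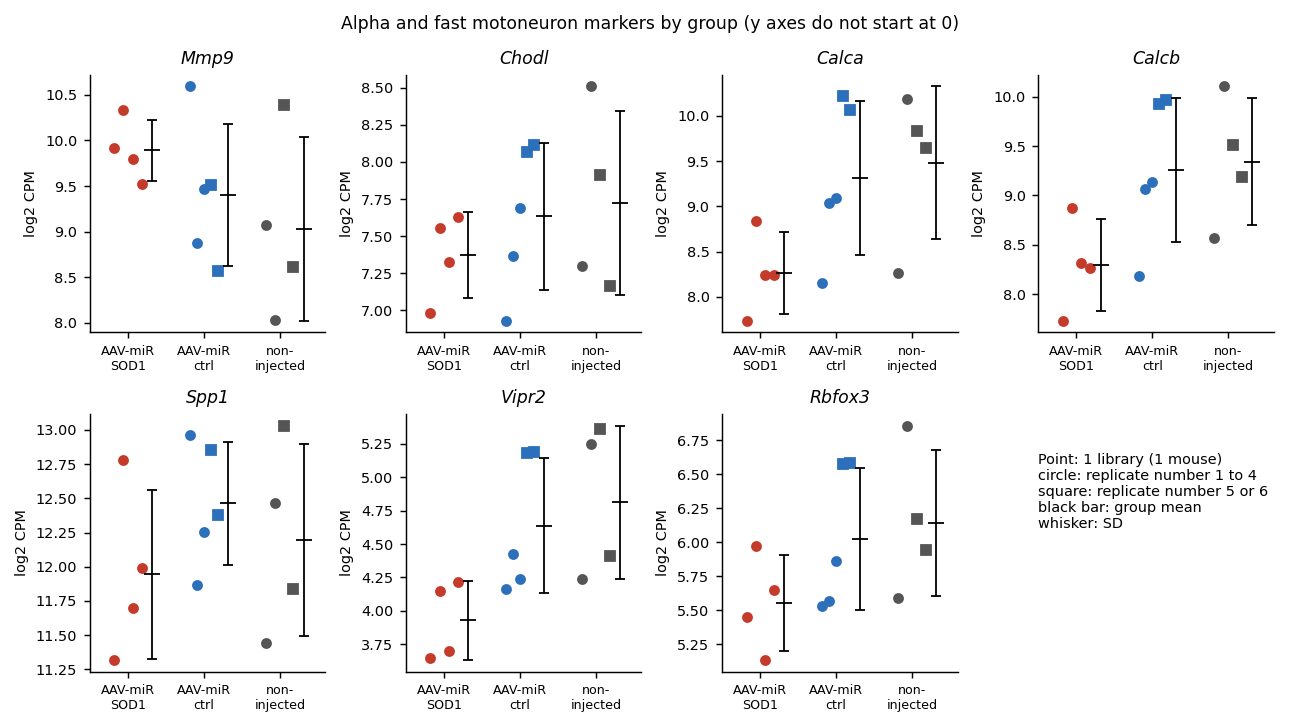
Level of each of the 7 markers in the 13 libraries (y axis, log2 CPM, not starting at 0) by group (x axis), with circles for libraries numbered 1 to 4, squares for those numbered 5 or 6, and the group mean with its SD as whiskers. The AAV-miR SOD1 libraries sat at 12.5 to 18.5 CPM for Vipr2, narrowly below all 4 non-injected libraries (from 18.8 CPM). In that comparison 11.7% of all genes tested did not overlap. For Vipr2 they overlapped the AAV-miR ctrl libraries (from 17.8 CPM), and for the other markers all groups overlapped.

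CGRP transcripts were the markers with the largest differences between groups, although neither passed the test over all genes. Calca stood at 213, 457, 304 and 302 CPM in AAV-miR SOD1 replicates 1 to 4. In AAV-miR ctrl it stood at 284, 526, 547, 1195 and 1069 CPM (replicates 1, 3, 4, 5 and 6), and in non-injected libraries at 307, 1165, 915 and 801 CPM (replicates 2, 3, 5 and 6). All 4 AAV-miR SOD1 libraries were low, but so were replicate 1 of AAV-miR ctrl and replicate 2 of the non-injected mice, so the groups overlapped. For AAV-miR SOD1 against AAV-miR ctrl this gave a log2 fold change of -1.18 ± 0.44 (SE; edgeR's quasi-likelihood test with Benjamini-Hochberg adjustment, adjusted p = 0.279), a 2.27-fold lower level. Against non-injected it was -1.32 ± 0.46 (SE; edgeR adjusted p = 0.151). Without both libraries of conflicting headers the values were -1.22 ± 0.46 and -0.9999 ± 0.48 (SE; edgeR adjusted p = 0.335 and 0.401).

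Calcb, the beta CGRP gene, was high and low in nearly the same libraries. Its levels were 212, 468, 319 and 307 CPM in AAV-miR SOD1, 291, 537, 563, 972 and 1002 CPM in AAV-miR ctrl and 379, 1103, 727 and 582 CPM in non-injected libraries, in the same order of replicates. AAV-miR SOD1 replicate 1 was the lowest and non-injected replicate 3 the highest of the 13. Log2 fold changes of AAV-miR SOD1 were -1.04 ± 0.39 (SE) against AAV-miR ctrl (edgeR adjusted p = 0.279) and -1.10 ± 0.41 (SE) against non-injected (edgeR adjusted p = 0.162), and without both libraries of conflicting headers they were -1.06 ± 0.38 and -0.71 ± 0.41 (SE; edgeR adjusted p = 0.327 and 0.456). The ratio of Calca to Calcb CPM was 0.952 to 1.00 in the AAV-miR SOD1 group and 0.81 to 1.38 elsewhere, and its 3 highest values, 1.23 to 1.38, came from libraries numbered 5 or 6.

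Sensory neurons also make CGRP, and their genes were low in most libraries. The 6 sensory neuron genes, among them Scn10a, Trpv1, Mrgprd, Scn11a and Avil, summed to 0.790 to 4.35 CPM in AAV-miR SOD1, 1.39 to 76.8 in AAV-miR ctrl and 0.447 to 2.45 in non-injected libraries. These ranges ended at 52.7 CPM in AAV-miR ctrl and 0.563 CPM in non-injected libraries when both libraries of conflicting headers were left out. Mrgprd was at 0 in all AAV-miR SOD1 libraries, and Scn10a and Mrgprd were at 0 in all non-injected ones, where Calca reached 307 to 1165 CPM. Of the 3 sensory genes tested, 2 had an unadjusted p under 0.05 against AAV-miR ctrl, both lower, and 0 had one against non-injected. The shares of all genes with such a p were 14.5% and 20.9%. Over the 13 libraries, the sensory score (log2 CPM centred on each gene's mean and averaged over the list) had a correlation of r = -0.12 with Calca (Spearman's rho -0.16, permutation p = 0.709 and 0.602) and r = -0.05 with Calcb (rho -0.16, permutation p = 0.870 and 0.591). These r were -0.27 and -0.24 without the 2 libraries farthest from the median score, 0.32 and 0.30 within the libraries numbered 1 to 4, and -0.21 and -0.16 without both libraries of conflicting headers. The partner genes of CGRP, Calcrl and Ramp1, which form its receptor, and Crcp, a receptor-associated protein, had no member past the test: the log2 fold changes against AAV-miR ctrl and non-injected were -0.06 and 0.15 for Calcrl, 0.14 and 0.28 for Ramp1, and -0.36 and -0.21 for Crcp.

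Vipr2, the receptor gene, was the marker with the least overlap between groups. It stood at 12.5, 17.7, 12.9 and 18.5 CPM in AAV-miR SOD1, 17.8, 21.4, 18.7, 36.2 and 36.4 CPM in AAV-miR ctrl and 18.8, 37.9, 41.0 and 21.2 CPM in non-injected libraries. The 4 AAV-miR SOD1 libraries were below all 4 non-injected ones, by a narrow margin at non-injected replicate 2, and 3 of 4 were below all AAV-miR ctrl libraries. Log2 fold changes of AAV-miR SOD1 were -0.76 ± 0.31 (SE) against AAV-miR ctrl (edgeR adjusted p = 0.301) and -0.95 ± 0.32 (SE) against non-injected (edgeR adjusted p = 0.147). Groups without overlap were found for 11.7% of all genes tested in the second comparison and for 3.73% in the first, so this separation was not rare. Of the other genes of this peptide system, Adcyap1r1, the PACAP receptor, had a log2 fold change of -0.81 ± 0.30 (SE) against AAV-miR ctrl (edgeR adjusted p = 0.277) and -0.87 ± 0.31 against non-injected (edgeR adjusted p = 0.154). The ligand Adcyap1 (-1.06 ± 1.15 and -0.37 ± 1.19, SE) and the receptor Vipr1 (0.11 ± 0.97 and 0.35 ± 1.02) had wide errors, and Vip, with 111 counts in all libraries together, was not tested.

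Chodl and Rbfox3 were lower on average in AAV-miR SOD1 libraries, within the spread. Chodl stood at 126, 188, 160 and 198 CPM in AAV-miR SOD1, 122, 165, 207, 268 and 277 CPM in AAV-miR ctrl and 157, 365, 241 and 143 CPM in non-injected libraries. The lowest library was AAV-miR ctrl replicate 1 and the highest non-injected replicate 3, whose header conflicts with its title. Its log2 fold changes were -0.31 ± 0.31 (SE; edgeR adjusted p = 0.677) and -0.43 ± 0.32 (SE; edgeR adjusted p = 0.475) against AAV-miR ctrl and non-injected. Against AAV-miR ctrl it was -0.19, -0.20 and -0.16 without AAV-miR SOD1 replicate 1, AAV-miR ctrl replicate 5 and AAV-miR ctrl replicate 6. Against non-injected it was -0.11 without non-injected replicate 3, and without both libraries of conflicting headers the values were -0.32 and -0.03. Layn, which encodes layilin, a lectin related to chondrolectin, was at -0.43 ± 0.37 and -0.50 ± 0.39 (SE) in the same comparisons.

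Rbfox3, the NeuN gene, stood at 43.8, 62.7, 35.1 and 50.2 CPM in AAV-miR SOD1, 46.2, 47.5, 58.0, 95.5 and 95.7 CPM in AAV-miR ctrl and 48.1, 116, 72.1 and 61.6 CPM in non-injected libraries. Only AAV-miR SOD1 replicates 1 and 3 lay below every control library. Log2 fold changes were -0.52 ± 0.30 (SE; edgeR adjusted p = 0.445) and -0.63 ± 0.32 (SE; edgeR adjusted p = 0.274). The former was -0.33 without AAV-miR SOD1 replicate 3 and -0.34 without AAV-miR ctrl replicate 6, and the latter was -0.34 without non-injected replicate 3. They were -0.57 and -0.26 without both libraries of conflicting headers. Its relative Rbfox1, a splicing factor of the same family, was at -0.77 ± 0.28 (SE; edgeR adjusted p = 0.277) and -1.002 ± 0.29 (SE; edgeR adjusted p = 0.140), and Rbfox2 at -0.41 ± 0.17 and -0.33 ± 0.18 (SE).

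Spp1, the most abundant marker, had its lowest mean in AAV-miR SOD1 libraries, within a wide spread. It stood at 2554, 7018, 3331 and 4066 CPM in AAV-miR SOD1, 7973, 3736, 4892, 7394 and 5316 CPM in AAV-miR ctrl and 2786, 5664, 8377 and 3666 CPM in non-injected libraries. High and low libraries were found in each group. Log2 fold changes were -0.47 ± 0.40 (SE; edgeR adjusted p = 0.618) and -0.27 ± 0.42 (SE; edgeR adjusted p = 0.751). The former was -0.29 without AAV-miR SOD1 replicate 1 and -0.83 without replicate 2. The latter was -0.09, -0.61 and -0.10 without AAV-miR SOD1 replicates 1, 2 and 3, and 0.12 without non-injected replicate 5. They were -0.54 and -0.14 without both libraries of conflicting headers. Of the osteopontin receptors, Cd44 was at 0.53 ± 0.34 (SE) against AAV-miR ctrl and 1.08 ± 0.36 (SE) against non-injected (edgeR adjusted p = 0.147). The integrin genes Itgav, Itgb1, Itgb3 and Itga9 lay between -0.48 and 1.08 over both comparisons, with 0 of 4 at an unadjusted p under 0.05.

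Mmp9, the metalloproteinase, was the only marker with a higher mean in AAV-miR SOD1 libraries. It stood at 964, 1289, 892 and 736 CPM in AAV-miR SOD1, 1546, 471, 706, 732 and 379 CPM in AAV-miR ctrl and 539, 261, 1345 and 392 CPM in non-injected libraries. The AAV-miR SOD1 libraries were close together (coefficient of variation 24.0%) and inside the range of the controls (60.2% and 76.8%), which was set by high values in replicate 1 of AAV-miR ctrl and replicate 5 of the non-injected mice. Log2 fold changes were 0.34 ± 0.47 (SE; edgeR adjusted p = 0.780) and 0.61 ± 0.50 (SE; edgeR adjusted p = 0.513). The former was 0.76 without AAV-miR ctrl replicate 1, 0.18 without AAV-miR ctrl replicate 6 and 0.16 without AAV-miR SOD1 replicate 2. The latter was 1.33 without non-injected replicate 5 and 0.35 without non-injected replicate 3, and without both libraries of conflicting headers the values were 0.25 and 0.44. Of the inhibitors and related proteases, Mmp8, the collagenase of neutrophils, was at 1.03 ± 0.38 (SE; edgeR adjusted p = 0.277) and 1.31 ± 0.40 (SE; edgeR adjusted p = 0.140). The other 6, the inhibitors Timp1 to Timp4 and the proteases Mmp2 and Mmp14, lay between -0.70 and 0.68 over both comparisons, with 0 of 6 at an unadjusted p under 0.05.

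**Figure D2:**
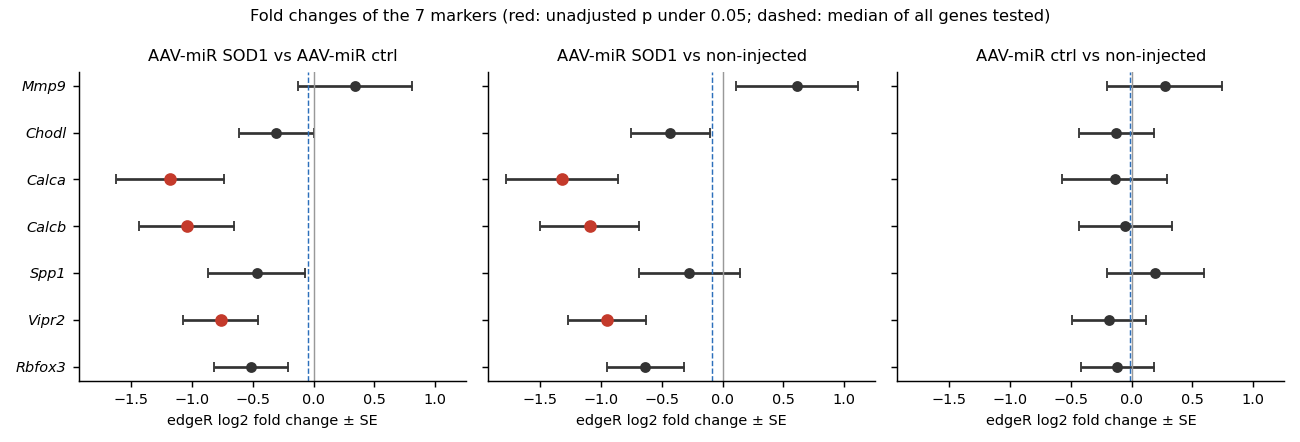
Log2 fold change with its SE (x axis) of each marker (y axis) in the 3 comparisons between groups, with red points for an unadjusted p under 0.05 and a dashed line at the median of all genes tested. Calca, Calcb and Vipr2 were red in both comparisons of AAV-miR SOD1, and every marker lay between -0.19 and 0.27 between the control groups.

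Over the set, 0 of 7 markers passed edgeR's quasi-likelihood test with Benjamini-Hochberg adjustment in any of the 4 comparisons, as did 0% of all genes. At an unadjusted p under 0.05, 3 of 7 (Calca, Calcb and Vipr2, each lower) were found for AAV-miR SOD1 against AAV-miR ctrl, where 14.5% of all genes tested had such a p and 8.54% were lower. The same 3 genes were found against non-injected, where the shares were 20.9% and 11.5%, and in both comparisons, which share the AAV-miR SOD1 libraries, 11.0% of all genes had such a p in the same direction. Median log2 fold changes of the 7 were -0.52 and -0.63, beside -0.04 and -0.09 over all genes, and 6 of 7 were below 0, beside 53.7% and 55.1% of all genes. Calca, Calcb and Vipr2 correlated with each other at r = 0.91 to 0.98 over the 13 libraries, so these counts do not rest on independent genes. Between AAV-miR ctrl and non-injected, 0 of 7 had an unadjusted p under 0.05, against 3.61% of all genes, and the markers lay between -0.19 and 0.27. Against both control groups together, which holds the same AAV-miR SOD1 libraries, Calca was at -1.25 ± 0.41 (SE; edgeR adjusted p = 0.115), Calcb at -1.07 ± 0.36 (adjusted p = 0.121) and Vipr2 at -0.86 ± 0.28 (adjusted p = 0.116), with 3 of 7 markers and 22.2% of all genes at an unadjusted p under 0.05.

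These counts rested on few libraries. Against AAV-miR ctrl, the 3 markers became 0 without AAV-miR SOD1 replicate 1, 1 without AAV-miR ctrl replicate 5 and 0 without AAV-miR ctrl replicate 6, where 6.68%, 9.30% and 9.23% of all genes tested had an unadjusted p under 0.05. A fit on the 9 libraries numbered 1 to 4 held only replicates 2 and 3 of the non-injected mice. The header of this replicate 3 conflicts with its title. In this fit Vipr2 had a log2 fold change of -0.32 ± 0.28 (SE) against AAV-miR ctrl and -0.86 ± 0.31 against non-injected. Calca had one of -0.48 ± 0.45 against AAV-miR ctrl. Of 7 markers, 0 and 4 had an unadjusted p under 0.05, beside 4.88% and 15.7% of all genes in the same fit. Without both libraries of conflicting headers, Vipr2 was at -0.77 ± 0.32 and -0.73 ± 0.34 (SE), with 3 and 0 of 7 at that p beside 13.02% and 12.7% of all genes. With their groups exchanged it was at -0.94 ± 0.31 and -0.74 ± 0.32, with 4 and 2 of 7 beside 19.9% and 14.8% of all genes. DESeq2 called Calca, Calcb and Vipr2 against both control groups (adjusted p = 0.0285, 0.0375 and 0.0478), where it called 1480 genes in all, and limma-voom called Calca and Calcb (adjusted p = 0.0430 and 0.0439) among 1461. Neither method called a marker against either control group alone.

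Genes that mark motoneurons in general were low in the same libraries. Of the 8 cholinergic and motoneuron genes, 6 were lower at an unadjusted p under 0.05 against AAV-miR ctrl and 7 against non-injected, with medians of -0.92 and -1.30 on the log2 scale. Over all genes tested, 8.54% and 11.5% were lower at that p. Chat, the acetylcholine-synthesizing enzyme, was at -0.83 ± 0.26 and -0.99 ± 0.27 (SE), and Slc18a3, the vesicular acetylcholine transporter, at -1.11 ± 0.41 and -1.36 ± 0.43. The score of this list had a correlation over the 13 libraries of r = 0.96 with Calca, 0.94 with Vipr2, 0.94 with Calcb and 0.93 with Rbfox3 (permutation p from 1e-05, the smallest that 100000 resamples can give, to 2e-05, adjusted p over 13 relations at most 5.2e-05). Spearman's rho was 0.95, 0.86, 0.94 and 0.93 for these genes (permutation p from 2e-05 to 0.00032). For Chodl r was 0.77 (rho 0.74, permutation p = 0.00248 and 0.00477, adjusted p = 0.00537). When the 2 libraries farthest from the median score were left out, r was 0.94, 0.91, 0.91, 0.89 and 0.62 for Calca, Vipr2, Calcb, Rbfox3 and Chodl, and within the libraries numbered 1 to 4 it was 0.92, 0.94, 0.93, 0.95 and 0.83. Without both libraries of conflicting headers, r was 0.96, 0.93, 0.94, 0.93 and 0.70. Spp1 (r = 0.54, rho 0.59, permutation p = 0.0599 and 0.0357) and Mmp9 (r = -0.46, rho -0.45, permutation p = 0.115 and 0.124) did not pass after adjustment, and without both libraries of conflicting headers their r was 0.54 and -0.33. With the score as a covariate, log2 fold changes against AAV-miR ctrl were 0.07 ± 0.23 for Calca, -0.04 ± 0.24 for Calcb and -0.03 ± 0.22 for Vipr2 (SE), and 0 of 7 markers had an unadjusted p under 0.05 in any comparison, beside 3.69% to 7.64% of all genes. Erythroid genes were higher in the same libraries, with 6 of 6 at an unadjusted p under 0.05 in both comparisons and medians of 1.35 and 1.77, and so were 2 and 5 of 8 neutrophil genes. With the erythroid score as a covariate, an alternative chosen after the data had been seen, log2 fold changes against AAV-miR ctrl were 0.10 ± 0.44 for Calca, -0.03 ± 0.41 for Calcb and -0.19 ± 0.37 for Vipr2 (SE), and the part of blood cell RNA in the marker levels was not tested. Every pool was labelled as 500 motoneurons. In bulk samples of this kind, a smaller share of motoneuron RNA in the library and less of each RNA per motoneuron cannot be told apart.

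**Figure D3:**
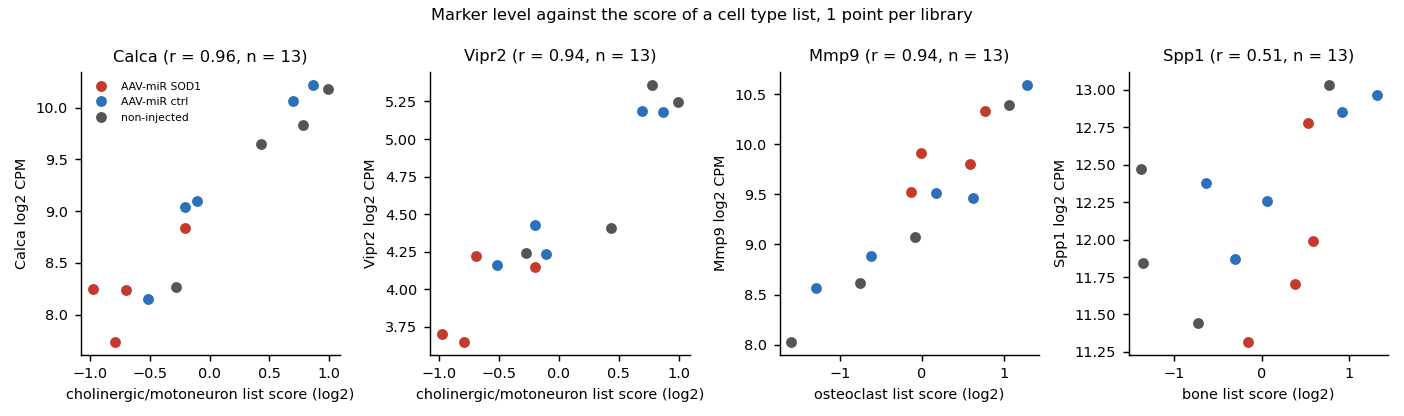
Level of Calca, Vipr2, Mmp9 and Spp1 (y axes, log2 CPM) against the score of a cell type list (x axes, log2), 1 point per library, coloured by group. Calca and Vipr2 followed the cholinergic and motoneuron list (r = 0.96 and 0.94), Mmp9 the osteoclast list (r = 0.94), and Spp1 the bone list only loosely (r = 0.51).

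Mmp9 varied with genes of another cell type. Osteoclasts, the bone-resorbing cells, make Mmp9 in large amounts, and all 5 osteoclast genes (Acp5, Ctsk, Ocstamp, Oscar and Atp6v0d2) were detected in every library, with none at 0. Their summed level was 2163 to 4363 CPM in AAV-miR SOD1, 930 to 5981 in AAV-miR ctrl and 657 to 4788 in non-injected libraries, and 0 of 5 had an unadjusted p under 0.05 in either comparison of AAV-miR SOD1. The correlation of Mmp9 with the osteoclast score was r = 0.94 (rho 0.90, permutation p = 1e-05 and 8e-05, adjusted p = 4.33e-05). It was 0.90 without the 2 farthest libraries, 0.93 within the libraries numbered 1 to 4, 0.95 after subtraction of each group's mean and 0.91 without both libraries of conflicting headers. With the neutrophil score, r was 0.59 (rho 0.66, permutation p = 0.0334 and 0.0173, adjusted p = 0.0621 and 0.0322), 0.47 without the 2 farthest libraries and 0.58 without both libraries of conflicting headers. After subtraction of each group's mean, r with the neutrophil score was 0.46 (permutation p = 0.109, adjusted p = 0.157). With the osteoclast score as a covariate, an alternative chosen after the data had been seen, the log2 fold change of Mmp9 was 0.27 ± 0.21 (SE) against AAV-miR ctrl and 0.36 ± 0.22 against non-injected, beside an SE of 0.47 and 0.50 without it. The part of osteoclast RNA in the Mmp9 counts was not tested.

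Spp1 is also made in bone and in microglia, the immune cells of the cord. The 6 bone genes were all detected in every library and summed to 3391 to 8686 CPM in AAV-miR SOD1, 2877 to 14174 in AAV-miR ctrl and 1690 to 9160 in non-injected libraries. The correlation of Spp1 with the bone score was r = 0.51 (rho 0.57, permutation p = 0.0740 and 0.0469, adjusted p = 0.107 and 0.0677), 0.70 without the 2 farthest libraries, 0.40 within the libraries numbered 1 to 4, and 0.66 after subtraction of group means (permutation p = 0.0150, adjusted p = 0.0279). Without both libraries of conflicting headers it was 0.65 (permutation p = 0.0300, adjusted p = 0.0557). With the microglia score it was -0.07 (rho -0.10, permutation p = 0.822 and 0.738), and -0.01 without both libraries of conflicting headers. The 7 microglia genes were detected in every library, at a sum of 589 to 1034 CPM in AAV-miR SOD1, 351 to 1156 in AAV-miR ctrl and 225 to 641 in non-injected libraries. The part of bone RNA in the Spp1 counts was not tested.

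The markers also differed in how they varied with each other. Of 21 pairs, 10 had a Benjamini-Hochberg adjusted permutation p under 0.05, and these were exactly the pairs within Chodl, Calca, Calcb, Vipr2 and Rbfox3, with r from 0.80 (Calca and Chodl) to 0.98 (Calca and Calcb). For the CGRP pair rho was 0.98 (permutation p = 1e-05 for both, adjusted p = 0.000158 and 0.00021), r was 0.97 without the 2 farthest libraries and 0.99 within the libraries numbered 1 to 4. For Calca and Chodl rho was 0.80 (permutation p = 0.00115 and 0.00189, adjusted p = 0.00242 and 0.00496), and r was 0.74 and 0.89 in the same subsets. The same 10 pairs passed, with r from 0.78 to 0.98, without both libraries of conflicting headers. Mmp9 had an r of -0.55 to -0.37 with these 5 genes and Spp1 an r of 0.46 to 0.61, none of them past the adjusted test, and Mmp9 with Spp1 was at 0.34. Without both libraries of conflicting headers these r were -0.40 to -0.20, 0.48 to 0.63 and 0.47. Ranked from the lowest of the 13 libraries, the 5 genes had a mean rank of 1.4 in AAV-miR SOD1 replicate 1, 2.4 in AAV-miR ctrl replicate 1 and 3.2 in AAV-miR SOD1 replicate 3. The highest mean ranks were 12.6 in non-injected replicate 3, 11.6 and 11.2 in AAV-miR ctrl replicates 6 and 5, and 10.6 in non-injected replicate 5.

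**Figure D4:**
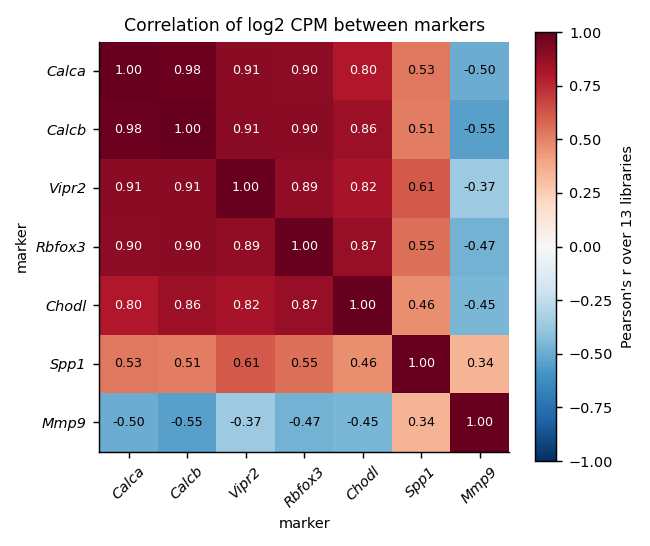
Pearson's r of log2 CPM over the 13 libraries for each pair of markers (both axes). The 5 genes Calca, Calcb, Vipr2, Rbfox3 and Chodl form a block with r of 0.80 to 0.98, while Mmp9 is negative against each of them.

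Genes whose pattern was most like that of each marker, by Pearson's r of log2 CPM over the 13 libraries among 10349 genes, are given as a description. For Mmp9 these were Tcirg1 (r = 0.97), a proton pump subunit used by osteoclasts, Acp5 (0.96), the tartrate-resistant acid phosphatase of osteoclasts, and Hexa (0.96), a lysosomal enzyme. For Calca they were B3galnt1, Cltb and Tubb2a (r = 0.99, 0.98 and 0.98), the last a neuronal tubulin, and for Calcb they were Clvs2, Calca and Tram1l1 (0.98 each). For Rbfox3 they were Scamp5, Grina and Kif5c (0.99, 0.98 and 0.98), of which Kif5c is a neuronal transport motor. For Vipr2 they were Atxn10, Pde1b and Arl16 (0.97 each), for Chodl Tmem33, Mrpl41 and Hddc2 (0.93, 0.92 and 0.91), and for Spp1 Cdh2, the N-cadherin gene, Cadm1 and Eya3 (0.92, 0.90 and 0.89).

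Genes of the same motoneuron classes outside the 7 had similar medians. Of 15 other alpha and fast motoneuron genes, 6 were lower and 1 higher at an unadjusted p under 0.05 against AAV-miR ctrl, and 8 were lower and 2 higher against non-injected, with medians of -0.54 and -0.77. Among those lower at that threshold in both comparisons were the synaptic vesicle gene Sv2b (-0.67 and -0.81), the potassium channel genes Kcna1 (-0.51 and -0.70), Kcna2 (-0.49 and -0.54) and Kcnab1 (-0.85 and -0.96). In the same comparisons, 6 of 6 erythroid genes were higher at that threshold, and their sum was 19281 to 50895 CPM in AAV-miR SOD1 and 3577 to 29922 and 5495 to 18778 CPM in AAV-miR ctrl and non-injected libraries. The part of erythroid RNA in these lists was not tested. Of 4 slow motoneuron genes, Sv2a was lower at that threshold (-0.87 and -0.75), and the list medians were -0.69 and -0.72. Of 7 gamma motoneuron genes, 2 were lower against AAV-miR ctrl and 1 against non-injected, with medians of -0.91 and -0.57. Gfra1, a receptor subunit for GDNF, was lower in both (-0.94 and -1.21). In these lists, 0 genes passed the adjusted test, and whether alpha, slow and gamma lists differ from each other was not tested. Over all genes tested, 14.5% and 20.9% had an unadjusted p under 0.05 against AAV-miR ctrl and non-injected.

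**Figure D5:**
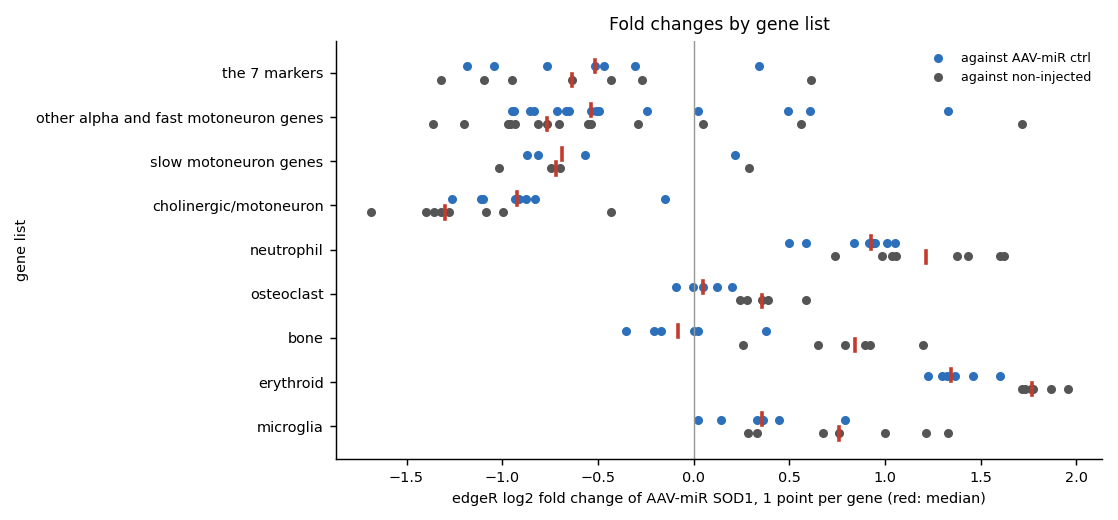
Log2 fold changes of AAV-miR SOD1 (x axis, 1 point per gene) against AAV-miR ctrl (blue) and non-injected (grey) for the 7 markers and 8 gene lists (y axis), with the median of each in red. The medians of the 7 markers (-0.52 and -0.63), of the alpha, slow and cholinergic lists lie below 0, and those of the neutrophil and erythroid lists (0.93, 1.22, 1.35 and 1.77) above it.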

How the data were processed

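The authors deposited raw read counts per gene (unit: counts, not normalized) for 13 libraries. Per the submitters' processing notes, cutadapt 1.8, STAR 2.5.2b and HTSeq 0.6.1 were used with GRCm38; the annotation release and strand setting are not given in the sources used here. Summary rows that name no gene held 47.0% to 61.6% of each deposited count table, mostly reads aligned to several places, and were left out. Groups and replicate numbers came from titles. Symbols and coordinates came from GENCODE M21, which named 48349 of 48709 identifiers, with 99.986% of counts.

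Genes were kept by filterByExpr (minimum count 10, minimum total 15). Counts were scaled by TMM and tested with edgeR 4.0.16 (R 4.3.3) in its quasi-likelihood F test on all libraries, with 3 group levels, Benjamini-Hochberg adjustment over 17403 genes and a threshold of 0.05. The SE of a log2 fold change is its size over the square root of F. Log2 CPM used a prior count of 2, and summed list levels are CPM without TMM scaling. Correlations used 100000 permutations. The edgeR fit was also run on simulated counts drawn independently for each gene, and the outcome is not reported here. Such counts cannot show how the test behaves where genes vary together across libraries. Alternatives were DESeq2 1.42.0, limma-voom (limma 3.58.1), other scaling, filter, libraries and covariates. The 7 markers are all named, with list genes at an unadjusted p under 0.05 in both AAV-miR SOD1 comparisons, partner genes, and the 3 genes most correlated with each marker. Some list genes are counted in their list's totals but are not reported here by name. The members and lists were chosen with earlier results of these data known. Each library is from a separate mouse, per the labels' protocols. Deviations of samples with the same replicate number correlated at -0.19 to 0.24, and whether the numbers mark shared handling was not tested.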

Additional observations from a re-analysis of the deposited data

How the results depend on the processing

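Every value below is a log2 fold change or a count of the 7 markers or of all genes, and the cause of each shift was not tested unless named. Genes called at an adjusted p under 0.05 went from 0 by edgeR to 173, 996, 2 and 1480 with DESeq2 (AAV-miR SOD1 against AAV-miR ctrl, against non-injected, the controls against each other, and AAV-miR SOD1 against all controls), to 1461 against all controls with limma-voom and to 1 there without a filter on low counts. Markers called there were 3 with DESeq2 and 2 with limma-voom. Against AAV-miR ctrl alone and against non-injected alone, 0 markers were called in any alternative. Leaving out each library in turn gave 0 to 1694 genes and 0 to 2 markers called against both, the highest without AAV-miR ctrl replicate 1. Markers at an unadjusted p under 0.05 then ranged from 0 to 3 against AAV-miR ctrl and from 0 to 1 between the control groups. The share of all genes at that p also changed with the libraries used, as given above. Counts of markers here and below are therefore no result about the markers by themselves. That share is not reported here for every library left out, for the replicate block or for the count against both in libraries numbered 1 to 4. These counts cannot be read against all genes. With the replicate number as a block (replicate block), 0 markers had such a p in each comparison of AAV-miR SOD1, and Calca and Calcb were at 0.028 and 0.14 between the control groups. Deviations of same-numbered libraries from their group means correlated at -0.19 to 0.24. No correlations of differently numbered libraries were set beside these, so shared handling by number was not tested. With the motoneuron score as a covariate the count was 0 in all 3 comparisons of AAV-miR SOD1, beside the share of all genes given above for that covariate. Then Chodl, Calca and Rbfox3 were at 0.38, 0.069 and 0.25 against AAV-miR ctrl. Against non-injected, Chodl, Calca, Calcb, Spp1, Vipr2 and Rbfox3 were at 0.52, 0.35, 0.25, 0.41, 0.058 and 0.41, and against both at 0.45, 0.21, 0.11, 0.16, 0.015 and 0.33. Between the control groups Chodl, Calca, Calcb, Vipr2 and Rbfox3 were at 0.14, 0.29, 0.30, 0.087 and 0.17. In the libraries numbered 1 to 4 the count was 0 against AAV-miR ctrl, beside the share given above, and 1 against both. Chodl was at 0.045 against AAV-miR ctrl. Spp1 was at 0.035 against non-injected, of which only replicates 2 and 3 were in that fit. With the groups of the 2 libraries of conflicting headers exchanged, Chodl, Calca, Calcb, Vipr2 and Rbfox3 were at 0.49, 0.42, 0.50, 0.20 and 0.52 between the control groups. Without both, chosen after the data had been seen, they were at 0.30, 0.22, 0.35, 0.040 and 0.31. The count against non-injected was then 0, beside the share given above. With limma-voom, Chodl was at 0.013 between the control groups. With the erythroid score as a covariate, also chosen after the data had been seen, Mmp9, Chodl, Calca and Rbfox3 were at -0.20, 0.39, 0.10 and 0.14 against AAV-miR ctrl. Mmp9, Chodl, Calca, Calcb and Rbfox3 were at -0.057, 0.39, 0.18, 0.090 and 0.15 against non-injected and at -0.13, 0.39, 0.14, 0.028 and 0.15 against both. Chodl, Calca, Calcb and Rbfox3 were at 0.0070, 0.076, 0.12 and 0.0055 between the control groups. Single libraries turned the sign between the control groups: over the libraries left out, Mmp9 ran from -0.15 to 0.97, Chodl from -0.29 to 0.20, Calca from -0.40 to 0.10, Calcb from -0.25 to 0.26, Vipr2 from -0.34 to 0.023 and Rbfox3 from -0.27 to 0.18. Spp1 against non-injected ran from -0.61 to 0.12. After subtraction of group means the correlation of Spp1 with the microglia score was 0.083. The lowest marker count in a library was 250, and the fitted coefficient of biological variation of the markers was 0.335 to 0.491.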

Other observations

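Other cell types were measured in the same libraries. Over all genes tested, 14.5% and 20.9% had an unadjusted p under 0.05 by edgeR against AAV-miR ctrl and non-injected. In both comparisons and the same direction it was 11.0%, and the list counts below are to be read beside these shares. Of 5 astrocyte genes, only Aldoc, an enzyme of glycolysis, was lower at an unadjusted p under 0.05 in both comparisons of AAV-miR SOD1. Its log2 fold changes were -1.03 ± 0.26 and -0.88 ± 0.27 (SE), with an edgeR adjusted p of 0.256 and 0.140. The list medians were -0.55 and -0.26, and Slc1a3 was at 0.38 against non-injected. Of 7 microglia genes, 1 and 3 were higher at that p, with list medians of 0.36 and 0.76. Among them Tyrobp, a signalling adaptor, was higher in both comparisons (0.79 ± 0.35 and 1.21 ± 0.37, SE, edgeR adjusted p = 0.321 and 0.140). Of 8 neutrophil genes, 2 were higher against AAV-miR ctrl and 5 against non-injected, with Retnlg at 1.01 ± 0.37 and 1.38 ± 0.40 (SE). The 5 oligodendrocyte genes had medians of -0.73 and -0.38, with 0 of 5 at an unadjusted p under 0.05 by edgeR, as had the 5 interneuron genes (-0.38 and 0.02) and the 4 endothelial genes (0.09 and 0.10).

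In 21 sets of marker values (7 genes in 3 groups), 0 held a library apart from its group by Dixon's test. With 4 or 5 libraries per group, only a very large gap passes this test. It therefore does not show that no single library stood apart, and single libraries moved the fold changes given above.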
